A study of Mus musculus with 6 samples.

Results

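The 46 genes described here form 2 lists, 24 genes of DNA replication and 22 genes of mitosis, out of the 18193 genes measured. Each gene was taken by its symbol, from probe sets annotated to that symbol alone, and where several existed the one with the highest mean log2 signal over the arrays was used. All 24 replication genes and 21 of the 22 mitosis genes were found in this way. No probe set carried the name of Ccnb1, which encodes cyclin B1, in the annotation used, so this gene was not analysed here.

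The study grew epithelial cells from the bulge of the mouse vibrissa, the part of the whisker follicle in which its stem cells reside, as spheroids in a gel of 1% atelocollagen for 6 days. One medium, NFFSE, held Noggin, FGF-7, FGF-10, the sonic hedgehog agonist SAG and EGF, and the other, NFFS, held the same factors without EGF, so Noggin, the FGFs and SAG were common to all 6 cultures. Each factor was used at 50 ng/ml. The mice were 7 to 8 weeks old according to the methods, which name several strains and do not single out the one used for the arrays. In each of 3 repeats the isolated cells were divided between the media, which gave 3 NFFSE arrays and 3 NFFS arrays from 100 ng of RNA each. A culture is a mixture of cells, and a lower signal from fewer dividing cells cannot be told apart here from less RNA per cell.

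DNA replication starts from origins that are licensed in G1 phase, when ORC, Cdc6 and Cdt1 load the MCM ring onto DNA, and fires in S phase, when Cdc45 and GINS turn the ring into the active helicase and the polymerases, the sliding clamp PCNA and its loader RFC follow. Mitosis is driven by CDK1 with cyclins A and B, by the Aurora and Polo kinases and by the spindle motors, and it ends when the anaphase-promoting complex with Cdc20 marks cyclin B and securin for destruction. Transcription of the first set is known to be driven by E2F factors around the G1/S border. Transcription of the second is known to be controlled by B-Myb, FoxM1 and the DREAM complex, and CHR and CCAAT elements are common in their promoters. Stem cells of the bulge are known to divide rarely in the resting follicle, while cultured bulge cells cycle.

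The promoters of these genes were searched for the elements just named, and a sample of them is printed for the members with the smallest p in each list that were in the RefSeq promoter table of the GRCm38.p6 build. The table gave 20 promoters for 19 of the replication genes and 18 promoters for 18 of the mitosis genes, each running from 250 bases before to 50 bases after a gene's start. The letters searched, on both strands, were CCAAT itself for the CCAAT box, then TTTGAA for the CHR, and TTTGGCGC, TTTCGCGC and TTCCCGCC for the E2F site. These E2F forms can overlap each other. The 200 bases before the start are given 5′ to 3′ on the strand of the gene, in lower case with matches on either strand in capitals.
Rfc4, chr16:23127731-23127930, minus strand: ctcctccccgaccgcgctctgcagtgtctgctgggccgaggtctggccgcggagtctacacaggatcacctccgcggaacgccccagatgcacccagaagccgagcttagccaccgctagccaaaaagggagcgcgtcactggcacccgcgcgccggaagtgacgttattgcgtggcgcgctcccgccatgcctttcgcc
Ccne1, chr7:38107491-38107690, minus strand: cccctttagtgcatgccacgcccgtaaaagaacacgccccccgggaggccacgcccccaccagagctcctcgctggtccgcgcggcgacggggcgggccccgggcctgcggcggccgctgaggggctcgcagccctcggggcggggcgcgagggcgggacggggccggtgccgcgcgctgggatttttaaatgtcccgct
Mcm6, chr1:128359706-128359905, minus strand: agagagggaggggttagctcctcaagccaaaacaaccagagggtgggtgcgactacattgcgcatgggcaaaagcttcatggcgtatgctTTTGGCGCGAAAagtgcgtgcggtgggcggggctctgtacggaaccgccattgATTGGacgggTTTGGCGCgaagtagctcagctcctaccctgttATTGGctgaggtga
Kif11, chr19:37376182-37376381, plus strand: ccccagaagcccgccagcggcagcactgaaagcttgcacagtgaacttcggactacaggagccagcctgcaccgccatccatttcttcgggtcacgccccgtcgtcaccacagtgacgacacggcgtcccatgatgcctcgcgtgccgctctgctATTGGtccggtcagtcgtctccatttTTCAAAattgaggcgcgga
Anln, chr9:22389207-22389406, minus strand: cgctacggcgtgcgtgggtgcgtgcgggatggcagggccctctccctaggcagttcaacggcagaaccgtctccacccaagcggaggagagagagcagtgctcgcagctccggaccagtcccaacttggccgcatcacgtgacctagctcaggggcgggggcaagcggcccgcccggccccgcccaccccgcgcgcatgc
Ccnb2, chr9:70421555-70421754, minus strand: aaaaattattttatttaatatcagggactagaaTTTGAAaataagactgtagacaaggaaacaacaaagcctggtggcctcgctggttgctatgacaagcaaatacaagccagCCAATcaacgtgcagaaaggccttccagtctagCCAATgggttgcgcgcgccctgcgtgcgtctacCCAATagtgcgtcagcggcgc

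These stretches held 5 matches in Mcm6, 4 in Ccnb2 and 2 in Kif11, and none in Rfc4, Ccne1 or Anln. In Mcm6 an E2F form on each strand overlapped into a single run of capitals, and in Kif11 the inverted CCAAT stood upstream of an inverted CHR. Over the whole 300-base window an E2F form was in 10 of 20 replication promoters and 1 of 18 mitosis promoters (5.56%), that of Cdk1, against 2.96% of all 32851 promoters in the table. The CHR was in 14 of 18 mitosis promoters (77.8%) and 2 of 20 replication promoters (10.0%), against 17.9% of all. CCAAT and CHR stood together in 13 of 18 mitosis promoters (72.2%), against 6.95% of all. A match is a description of letters in the window and not a binding site.

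Across all 18193 genes, 2002 were higher in NFFSE (11.0%) and 2771 lower (15.2%) at an adjusted p under 0.05, so 26.2% were called in either direction. This test was limma's moderated test on log2 signal, with p adjusted over all genes. The share of calls that were higher was 41.9%, and it became 62.0% (2916 higher, 1784 lower) when each array was centered on its median, a step that moved the median difference of all genes to 0.19 on the log2 scale, against -0.01 as deposited. The array medians were 56.5 to 65.0 in NFFSE and 66.5 to 70.6 in NFFS, although every array had been scaled to the same trimmed mean. The 3′ minus 5′ log2 signal of Gapdh, a measure of RNA integrity and labelling, was -0.38 to -0.36 in NFFSE and -0.63 to -0.60 in NFFS, and that of Actb was 0.26 to 0.29 in NFFSE and 0.26 to 0.37 in NFFS. Of 13 markers of bulge epithelium 5 were higher in NFFSE and 3 lower, none of them at background on any array. Krt14 averaged 28311 in NFFSE and 16129 in NFFS, and Krt15 averaged 6961 in NFFSE and 26565 in NFFS. Of 12 fibroblast markers 6 were lower in NFFSE and 0 higher, with a summed signal of 2845 to 2850 in NFFSE and 7355 to 8793 in NFFS, most of it from Sparc. Their defining collagens Col1a1 and Col3a1 averaged 41.0 and 31.6 in NFFSE and 33.7 and 30.4 in NFFS, against 22.7 for the highest signal of a bacterial control probe set, and were not called. Col1a2 averaged 72.2 in NFFSE and 173 in NFFS, Col6a1 5.69 in NFFSE and 103 in NFFS, and Vcan 94.8 in NFFSE and 1035 in NFFS, and these were called lower. None of 8 melanocyte, 7 leukocyte and 5 endothelial markers was called by limma or the methods' t-test, with 0, 0 and 1 at an unadjusted p under 0.05 in limma, and their summed signals were 507 to 667, 425 to 474 and 225 to 291 in NFFSE and 503 to 673, 389.9 to 454.5 and 188 to 276 in NFFS. The part of these measures in the results that follow was not tested.

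For most replication genes the difference between cultures with and without EGF did not pass the test, and the calls that were made were mainly lower in NFFSE. In NFFSE 1 of 24 was higher, the cyclin gene Ccne1, and 6 were lower, Pole, Rfc4, Pold1, Mcm6, Gins2 and Rfc3. This is 29.2% called, against 26.2% of all genes. By direction it is 4.17% higher, against 11.0% of all genes, and 25.0% lower, against 15.2%. The other 17 did not pass, and for each of them the 95% confidence interval (CI) of the difference lay between -1 and 1 on the log2 scale, that is within a 2-fold change either way. For 13 of the 17 it lay between -0.5 and 0.5. The median difference of the list was -0.10, against -0.01 for all genes, and it was 0.10 with arrays centered on their medians, where that of all genes was 0.19. That setting called 2 genes higher and 2 lower, with 17 of 24 differences above 0, against 7 in the main setting. NFFSE and NFFS arrays did not overlap for 7 of the 24 genes, against 40.5% of all genes.

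**Figure D1:**
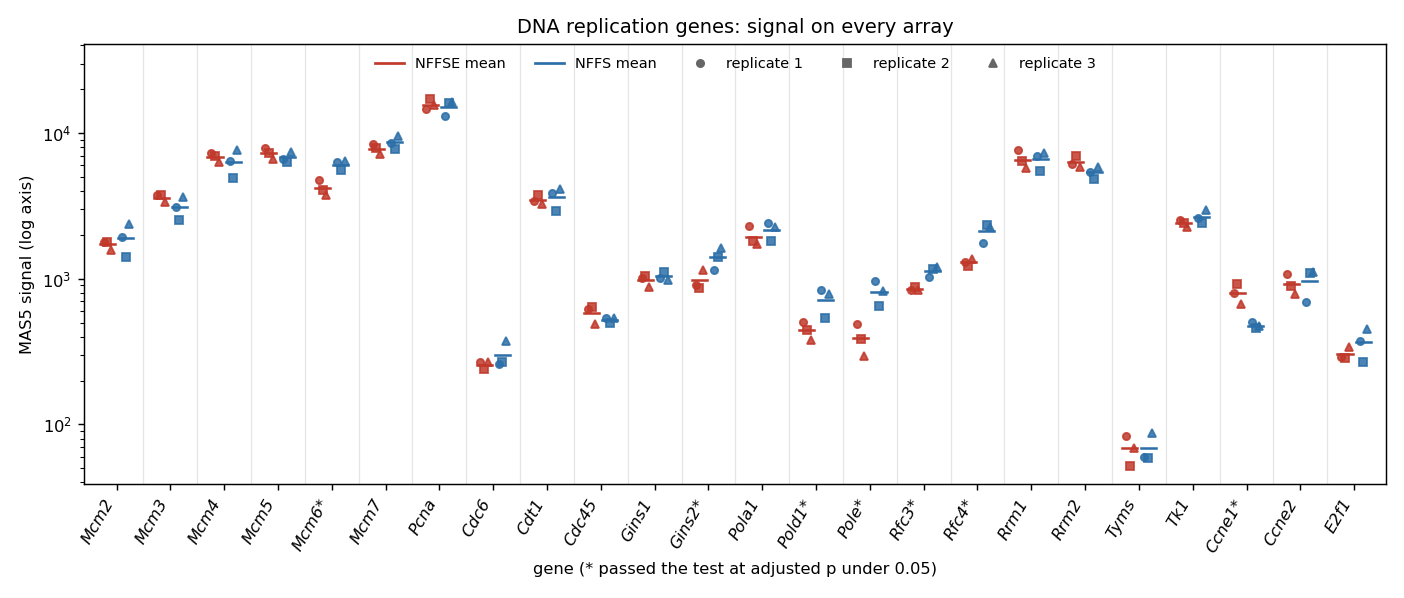
MAS5 signal (log axis) of the 24 replication genes on each of 3 NFFSE arrays (red, left of each pair) and 3 NFFS arrays (blue), with the mean of each medium as a line and the replicate number as the symbol. Asterisks mark the 7 genes that passed the test. Ccne1 sits higher in NFFSE, and Pole, Pold1, Rfc3, Rfc4 and Mcm6 sit lower with no overlap between the media.

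The subunits of the helicase, Mcm2 to Mcm7, split into 1 called gene and 5 that were not. Mcm6 had signals of 4797, 4096 and 3774 on the NFFSE arrays, against 6288, 5553 and 6421 on the NFFS arrays. All NFFSE arrays were below all NFFS arrays, and the difference was -0.53 ± 0.12 on the log2 scale (SE, n = 3 each), or 1.45-fold lower in NFFSE (adjusted p = 0.0071, limma). A further probe set of Mcm6 above background gave -0.49. Mcm2 had 1798, 1787 and 1583 in NFFSE, against 1932, 1403 and 2367 in NFFS. The NFFS arrays spanned the NFFSE arrays on both sides, with a difference of -0.11 ± 0.17 (adjusted p = 0.71, limma). The other 4 subunits lay between -0.14 for Mcm7 and 0.24 for Mcm3, with adjusted p of 0.25 to 0.60. The ring is assembled from 1 copy of each subunit, and Mcm6 was the member of the ring whose signal differed by the test in the main setting. The differences between Mcm6 and the other subunits were not tested. Its call held in 13 of 18 alternatives (other scalings, filters, tests and removals of arrays). It ended with arrays centered on their medians (adjusted p = 0.14, limma), the mean of all probe sets (0.46), no intensity trend (0.066), the methods' t-test (0.061) and without both replicate 3 arrays (0.12). The mean of all probe sets takes in a dim one that was at background on 5 of the 6 arrays.

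Cdc6 and Cdt1, which load the ring, were not called, at -0.20 ± 0.19 and -0.05 ± 0.14. Cdc45 and Gins1, parts of the activated helicase, were at 0.14 ± 0.14 and -0.09 ± 0.12 and were not called either. Gins2, another subunit of GINS, had 899, 867 and 1154 in NFFSE, against 1152, 1418 and 1629 in NFFS. The highest NFFSE array just exceeded the lowest NFFS array, and Gins2 fell by 0.52 ± 0.16 on the log2 scale (adjusted p = 0.034, limma). This call held in 6 of the 18 alternatives and, of the single arrays, ended without NFFSE replicate 1 (adjusted p = 0.11) or 2 (0.14), or without NFFS replicate 2 (0.072) or 3 (0.13).

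The largest fall of the list was in a polymerase gene, Pole. Pole, the catalytic subunit of the leading-strand polymerase epsilon, had 486, 389 and 295 in NFFSE, against 960, 654 and 828 in NFFS. Every NFFSE array was below every NFFS array, and the difference of -1.07 ± 0.20 made it 2.10-fold lower (adjusted p = 0.0033, limma). Pold1, the catalytic subunit of the lagging-strand polymerase delta, had 503, 445 and 383 in NFFSE, against 834, 538 and 780 in NFFS. It was 1.60-fold lower with no overlap (-0.68 ± 0.19, adjusted p = 0.022, limma). Its call held in 8 of the 18 alternatives and, of the single arrays, ended without NFFSE replicate 2 (adjusted p = 0.068) or 3 (0.084), or without NFFS replicate 1 (0.086) or 3 (0.083). Pola1, the subunit of polymerase alpha that extends the primers made by primase, was at -0.15 ± 0.14 and was not called.

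The clamp was not called, and of the 5 measured subunits of its loader 2 were lower in NFFSE, Rfc3 and Rfc4, while Rfc1, Rfc2 and Rfc5 of the wider list were at -0.19, 0.16 and -0.21 and were not called. Pcna, the sliding clamp and a common marker of S phase, had 14543, 17020 and 15546 in NFFSE, against 13145, 16125 and 16271 in NFFS. The media overlapped and the difference was 0.05 ± 0.12, with a 95% CI of 0.86-fold to 1.25-fold (adjusted p = 0.81, limma). Rfc4, a subunit of the loader, had 1312, 1226 and 1367 in NFFSE, against 1749, 2340 and 2267 in NFFS. The 3 NFFSE arrays were tightly grouped below the NFFS arrays, and Rfc4 was 1.62-fold lower (-0.69 ± 0.13, adjusted p = 0.0029, limma). Its other probe set above background gave -0.97. Rfc3, a second subunit, had 840, 881 and 835 in NFFSE, against 1034, 1165 and 1198 in NFFS. It was 1.33-fold lower with no overlap (-0.41 ± 0.11, adjusted p = 0.021, limma), and its other probe set gave -0.71. The call of Rfc3 held in 8 of the 18 alternatives and, of the single arrays, ended without NFFSE replicate 1 (adjusted p = 0.065), 2 (0.058) or 3 (0.065) and without NFFS replicate 3 (0.082).

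Genes of nucleotide supply were not called. Rrm2, the regulated subunit of ribonucleotide reductase, had 6135, 6936 and 5887 in NFFSE, against 5384, 4878 and 5855 in NFFS. All NFFSE arrays were above all NFFS arrays, by 0.23 ± 0.11 (adjusted p = 0.16, limma). The other probe sets of Rrm2 gave 0.61 and 0.23, the first with p adjusted over probe sets of 0.017 (limma). Rrm2 passed the test with arrays centered on their medians (0.44, adjusted p = 0.040). Rrm1, the large subunit, was at 0.00 ± 0.14, and Tk1, the salvage thymidine kinase, was at -0.14 ± 0.11. Tyms, thymidylate synthase, was measured by a dim probe set, averaging 68.4 in NFFSE and 68.4 in NFFS, and its 95% CI of 0.58-fold to 1.70-fold was the widest of the list.

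In the group that controls entry into S phase, one of the E cyclins rose. Ccne1, which encodes cyclin E1, the activator of CDK2 at the G1/S border, had 799, 924 and 667 in NFFSE, against 502, 456 and 473 in NFFS. Every NFFSE array exceeded every NFFS array, and Ccne1 was 1.66-fold higher (0.73 ± 0.15, adjusted p = 0.0043, limma). A second probe set gave 0.51. Ccne2, its paralog cyclin E2, had 1075, 897 and 788 in NFFSE, against 689, 1089 and 1104 in NFFS. The NFFS arrays spanned the NFFSE arrays, with a difference of -0.04 ± 0.19 (adjusted p = 0.91, limma). E2f1, an activator of replication genes, had 289, 287 and 340 in NFFSE, against 376, 268 and 454 in NFFS, and was not called (-0.23 ± 0.21, adjusted p = 0.48, limma). The difference between the 2 E cyclins was not tested.

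Among mitosis genes fewer calls were made. None of the 21 was higher in NFFSE and 2 were lower, Kif11 and Ccna2, which is 9.52% called against 26.2% of all genes. By direction, 11.0% of all genes were higher and 15.2% lower. At an unadjusted p under 0.05 limma had 1 higher, Anln, and 2 lower, and the methods' t-test called 0 of the list after adjustment. Their median difference was -0.13, and it was 0.07 with arrays centered on their medians, where that of all genes was 0.19. For all 19 genes that did not pass, the 95% CI lay within a 2-fold change either way, and for 10 it lay between -0.5 and 0.5 on the log2 scale. The arrays of the media did not overlap for 3 of the 21 genes, against 40.5% of all genes.

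**Figure D2:**
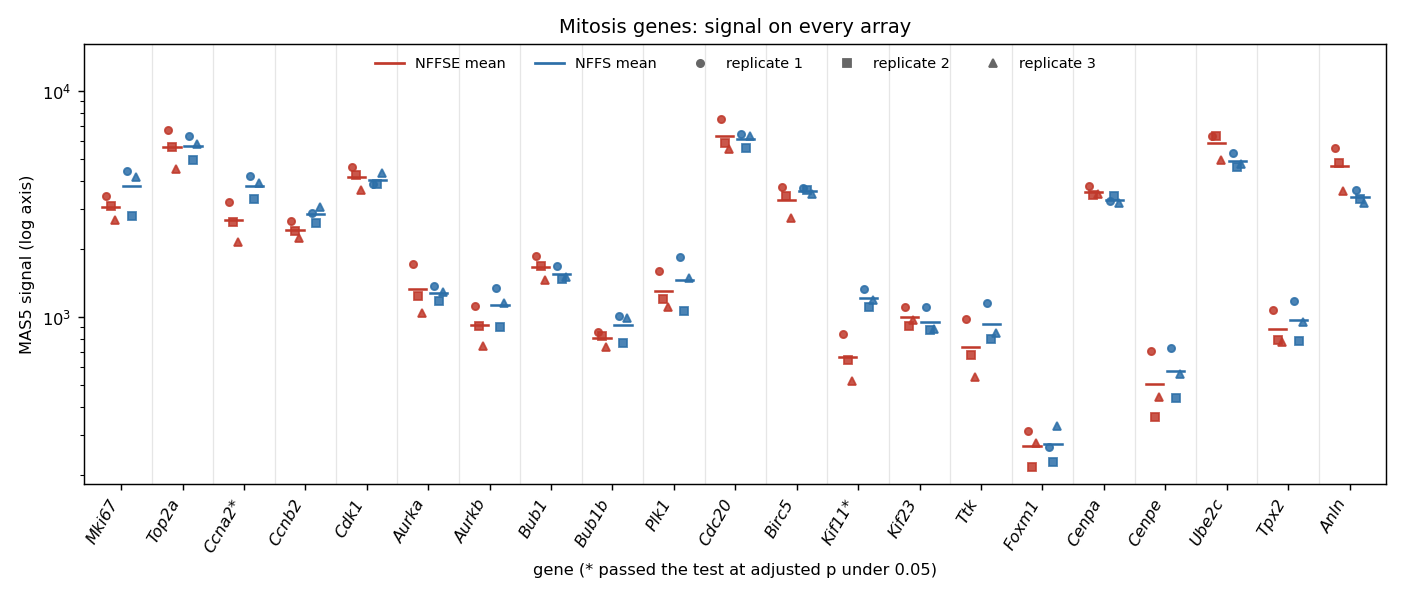
MAS5 signal (log axis) of the 21 mitosis genes on each of 3 NFFSE arrays (red, left of each pair) and 3 NFFS arrays (blue), with the mean of each medium as a line and the replicate number as the symbol. Asterisks mark Kif11 and Ccna2, the 2 genes that passed the test, both lower in NFFSE, and for most of the others the points of the media overlap.

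The marker genes of cycling cells did not pass. Mki67, which encodes the proliferation antigen Ki-67 that coats mitotic chromosomes, had 3428, 3099 and 2685 in NFFSE, against 4433, 2786 and 4149 in NFFS. The second NFFS array lay among the NFFSE arrays and the other two NFFS arrays above them, with a difference of -0.28 ± 0.17 (adjusted p = 0.28, limma). Without NFFS replicate 2 Mki67 passed, at -0.49 (adjusted p = 0.016). Top2a, the topoisomerase that untangles sister DNA, had 6752, 5653 and 4504 in NFFSE, against 6295, 4948 and 5852 in NFFS. The media overlapped fully, with a difference of -0.03 ± 0.15 and a 95% CI of 0.77-fold to 1.24-fold (adjusted p = 0.93, limma).

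The cyclins and their kinase were mixed. Ccna2, which encodes cyclin A2 of S phase and early mitosis, had 3223, 2638 and 2153 in NFFSE, against 4184, 3309 and 3925 in NFFS. The media did not overlap, and Ccna2 was 1.44-fold lower (-0.52 ± 0.15, adjusted p = 0.029, limma). Its second probe set gave -0.19, and its call held in 7 of the 18 alternatives and, of the single arrays, ended without NFFSE replicate 2 (0.089) or 3 (0.11) and without NFFS replicate 1 (0.097) or 3 (0.087). Ccnb2, a B-type mitotic cyclin, had 2658, 2401 and 2243 in NFFSE, against 2884, 2594 and 3061 in NFFS, with 1 NFFSE array inside the NFFS range (-0.23 ± 0.11, adjusted p = 0.17, limma). Cdk1, the kinase that drives entry into mitosis, had 4591, 4262 and 3641 in NFFSE, against 3878, 3861 and 4321 in NFFS. It differed by 0.05 ± 0.11 with a 95% CI of 0.87-fold to 1.23-fold (adjusted p = 0.82, limma). Foxm1, a transcription factor of mitotic genes, was at -0.03 ± 0.21, and its probe sets disagreed, with others above background at -0.88 and 0.23.

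The kinases of mitosis and of the spindle checkpoint were not called. Aurkb, Aurora B of the chromosomal passenger complex, had 1116, 907 and 741 in NFFSE, against 1345, 900 and 1148 in NFFS (-0.30 ± 0.18, adjusted p = 0.29, limma). Ttk, the checkpoint kinase also called Mps1, had 974, 680 and 543 in NFFSE, against 1147, 796 and 852 in NFFS (-0.37 ± 0.21, adjusted p = 0.26, limma). In both genes the first replicate was the highest array of its medium. Ttk was called lower only with the mean of its probe sets (-1.58, adjusted p = 0.0071), and its second probe set was at background on 4 of the 6 arrays. Aurka, Plk1, Bub1 and Bub1b lay between -0.19 for Bub1b and 0.10 for Bub1. A second probe set of Bub1 gave -0.53, with p adjusted over probe sets of 0.042 (limma).

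Ube2c, the ubiquitin-conjugating enzyme that works with the anaphase-promoting complex, had 6303, 6336 and 4934 in NFFSE, against 5337, 4618 and 4736 in NFFS. Of the NFFSE arrays 2 were above all NFFS arrays, with a difference of 0.25 ± 0.12 (adjusted p = 0.18, limma). Cdc20, the activator of that complex, was at 0.04 ± 0.13. At the centromere, Cenpa, Birc5 and Cenpe were at 0.12 ± 0.09, -0.14 ± 0.13 and -0.22 ± 0.26 and none passed. The 3 NFFSE arrays of Cenpa, the histone variant that marks centromeres, lay above its NFFS arrays, yet the mean of its probe sets, which takes in 2 dimmer ones, was lower in NFFSE (-0.66, adjusted p = 0.036, limma).

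Genes of the spindle and of cytokinesis held both ends of the list. Kif11, the motor that pushes spindle poles apart, had 838, 644 and 518 in NFFSE, against 1328, 1109 and 1183 in NFFS. Every NFFSE array was below every NFFS array, and Kif11 was 1.84-fold lower (-0.88 ± 0.17, adjusted p = 0.0037, limma). Its other 2 probe sets were also below 0, at -0.50 and -0.20, and the mean over them did not pass (-0.53, adjusted p = 0.093). Anln, which encodes the contractile-ring scaffold anillin, had 5583, 4783 and 3623 in NFFSE, against 3632, 3338 and 3206 in NFFS. The lowest NFFSE array fell just under the highest NFFS array, and the difference of 0.44 ± 0.15 missed the threshold (adjusted p = 0.056, limma). With the replicate block, which compares the arrays within each repeat, Anln passed (adjusted p = 0.015), as it did without NFFSE replicate 3 (0.0084). Kif23, a motor of the central spindle, was at 0.07 ± 0.13, and Tpx2, an activator of Aurora A, at -0.13 ± 0.18. Another probe set of Tpx2 gave -0.99, with p adjusted over probe sets of 0.0097 (limma).

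**Figure D3:**
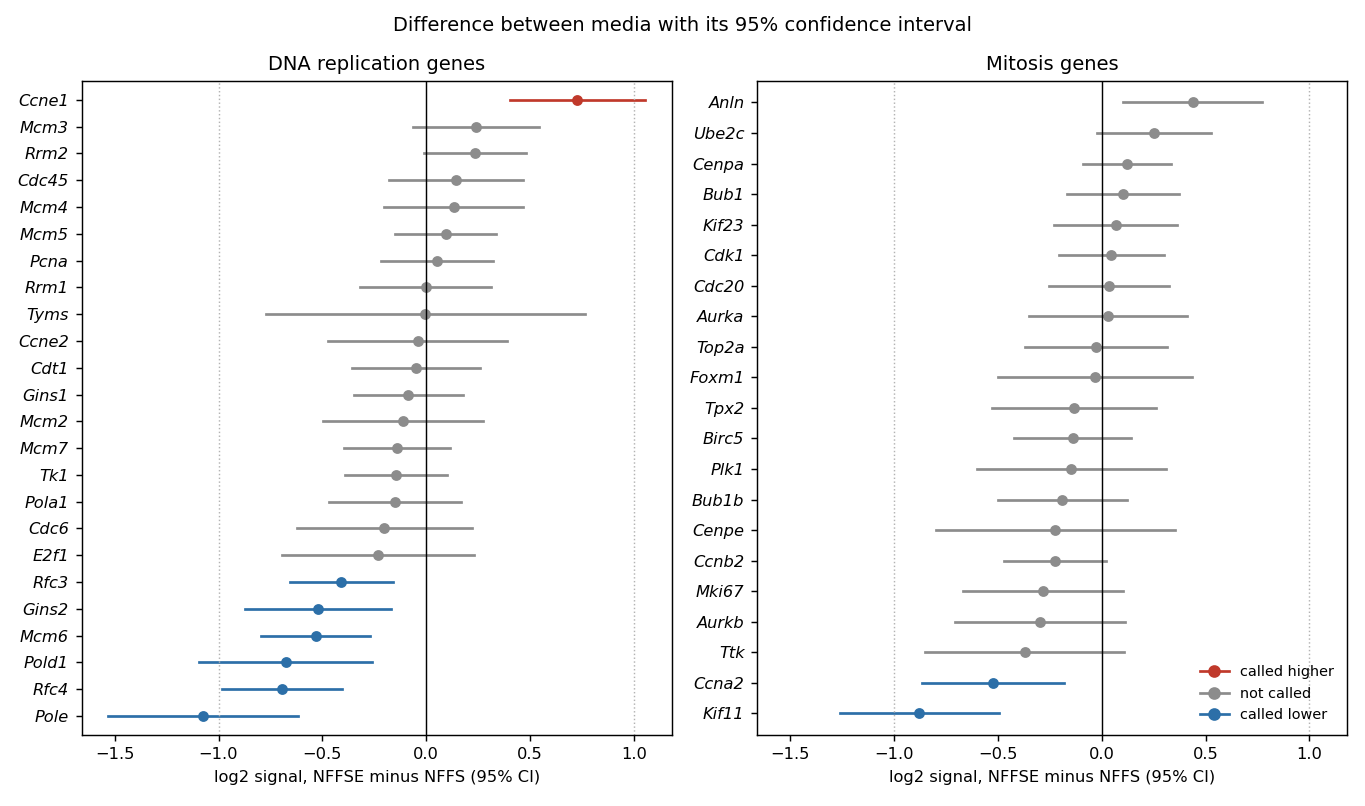
Difference in log2 signal, NFFSE minus NFFS, with its 95% CI (bars) for the 24 replication genes (left) and the 21 mitosis genes (right), ordered by the difference. Red marks a gene called higher, blue a gene called lower and grey a gene not called, and dotted lines mark 2-fold. All grey intervals lie between the dotted lines, and Pole, at -1.07, is the lowest point.

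Other probe sets of the same genes were compared next, since a single probe set stands for each gene above. For 29 of the 45 genes at least 1 further probe set was above background on every array, and in 20 of these 29 all of them had the same sign of difference as the one used. Among the 9 called genes, Pole had no other probe set, and the further probe sets above background of the other 8 (Mcm6, Gins2, Pold1, Rfc3, Rfc4, Ccne1, Ccna2 and Kif11) had the sign of the one used.

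Within a medium, the genes of mitosis moved together from array to array. Of the 21 genes, 20 had their highest NFFSE signal on replicate 1 (all but Ube2c) and 17 had their lowest on replicate 3. Among the NFFS arrays, 17 were highest on replicate 1 and 18 lowest on replicate 2. Over all genes, replicate 1 was highest for 33.2% in NFFSE and 34.0% in NFFS. The lowest array was replicate 3 for 32.0% of all genes in NFFSE and replicate 2 for 36.6% in NFFS. The median deviation of the mitosis genes from their medium's mean was 0.27 on NFFSE replicate 1 and -0.19 on NFFSE replicate 3, and 0.14 on NFFS replicate 1 and -0.13 on NFFS replicate 2. Replication genes had another pattern in NFFS, where 17 of 24 were highest on replicate 3 and 17 lowest on replicate 2. In NFFSE 18 of 24 were lowest on replicate 3. NFFS replicate 3 was the highest NFFS array for 30.4% of all genes.

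**Figure D4:**
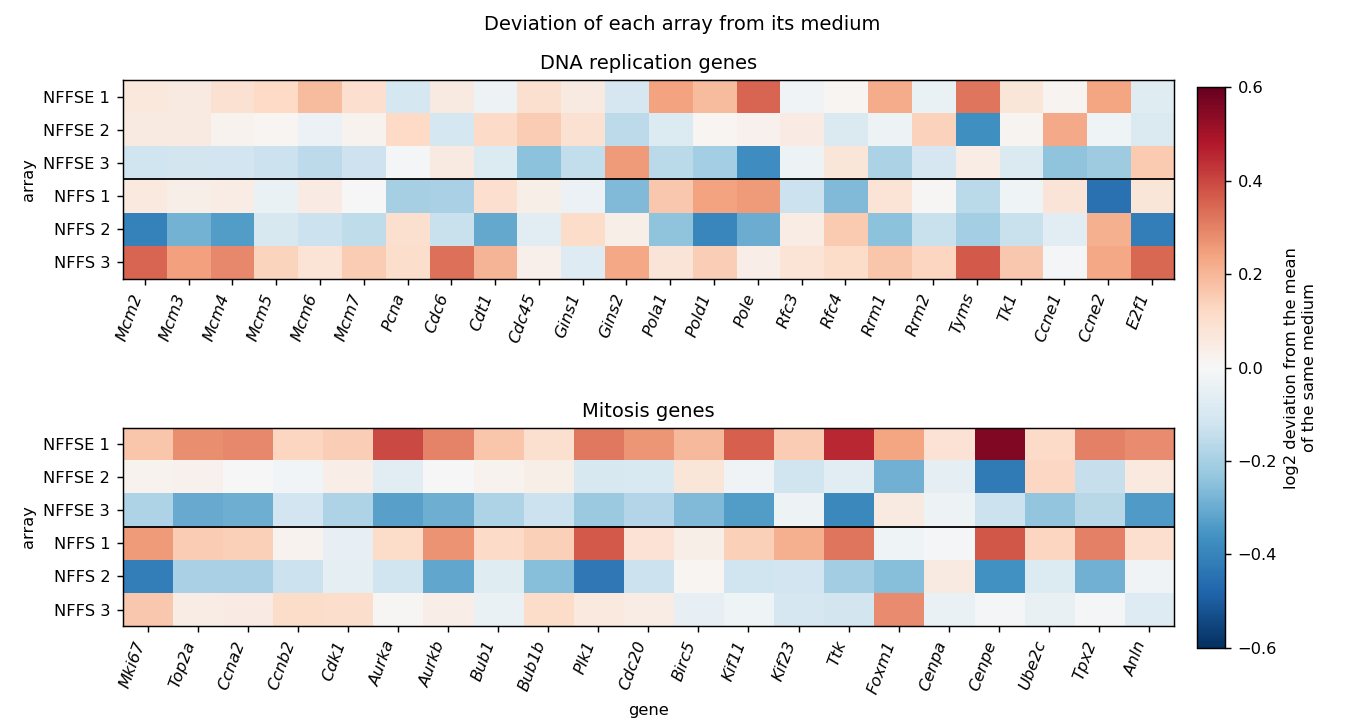
Deviation of the log2 signal on each array from the mean of the same medium (colour, red above and blue below) for the replication genes (top) and the mitosis genes (bottom), with the 3 NFFSE arrays above the 3 NFFS arrays. In the lower panel the rows of NFFSE replicate 1 and NFFS replicate 1 are red for nearly all genes, and those of NFFSE replicate 3 and NFFS replicate 2 are blue.

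Compared within each repeat, the replication genes were about evenly split in the first 2 repeats and mostly lower in the third. In replicate 1, 12 of 24 were lower in NFFSE than in the NFFS array of the same number, with a median difference of -0.02. In replicate 2, 10 were lower and the median was 0.02. In replicate 3, 22 of 24 were lower and the median was -0.39, while that of all genes was 0.02. Of the mitosis genes, 10, 7 and 17 of 21 were lower in replicates 1, 2 and 3, with medians of 0.00, 0.06 and -0.34. In replicate 2 they thus leaned to higher, at 66.7% against 47.3% of all genes. Of all genes, 51.4%, 52.7% and 49.2% were lower in replicates 1, 2 and 3. The difference between repeats was not tested. In all 3 repeats, 6 replication genes were lower and 2 higher, and 5 mitosis genes were lower and 4 higher, which is 25.0% and 8.33% of the replication genes and 23.8% and 19.0% of the mitosis genes, against 29.4% lower and 26.1% higher of all genes. A fit without both replicate 3 arrays, added after seeing the data, gave medians of 0.05 and 0.00 for the replication and mitosis genes. In that fit Rfc4 and Pole stayed lower (adjusted p = 0.037 and 0.039, limma), Ccne1 stayed higher (0.013) and Kif11 stayed lower (0.036), while Mcm6, Gins2, Pold1, Rfc3 and Ccna2 no longer passed, with adjusted p of 0.063 to 0.24, and Anln passed (0.039). Some of these losses were not particular to that repeat. Gins2, Pold1 and Rfc3 also no longer passed without both replicate 1 arrays (adjusted p = 0.054 to 0.088, limma). Gins2, Rfc3 and Ccna2 also no longer passed without both replicate 2 arrays (0.060 to 0.20). Among these removals, Mcm6 lost its call only without both replicate 3 arrays. The median of the replication genes was -0.17 without both replicate 1 arrays and -0.22 without both replicate 2 arrays. For the mitosis genes these medians were -0.13 and -0.17.

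Further genes of the same processes were drawn from wider lists. Of 40 further replication genes 37 were measured, and 1 was higher and 9 lower in NFFSE. This is 27.0% called, against 26.2% of all genes, with a list median of -0.21. By direction it is 2.7% higher, against 11.0% of all genes, and 24.3% lower, against 15.2%. Rpa2, a subunit of the protein that coats single-stranded DNA, had 1250, 1404 and 1074 in NFFSE, against 2178, 1948 and 2436 in NFFS, and was 1.76-fold lower (-0.82 ± 0.13, adjusted p = 0.0012, limma). Timeless, which with Tipin protects the fork, was 1.82-fold lower (adjusted p = 0.0041), and Orc5, a subunit of the origin recognition complex, was 1.53-fold lower (adjusted p = 0.0069). Orc1, the subunit of that complex whose level changes over the cell cycle in mammals, had 339, 347 and 304 in NFFSE, against 152, 195 and 193 in NFFS, and was 1.84-fold higher (0.88 ± 0.18, adjusted p = 0.0054, limma). The call of Orc5 ended with arrays centered on their medians (0.095) and without both replicate 1 (0.052) or both replicate 2 arrays (0.055), and that of Orc1 with the mean of its probe sets (0.53, adjusted p = 0.14) and without both replicate 1 arrays (0.057). With arrays centered on their medians this list had 1 gene higher and 2 lower, with a median of -0.01.

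All 48 further mitosis genes were measured, and 1 was higher, Tacc3, and 12 lower in NFFSE. This is 27.1% called, against 26.2% of all genes, with a list median of -0.29. By direction it is 2.08% higher, against 11.0% of all genes, and 25.0% lower, against 15.2%. The 4 with the smallest p were all lower. Kif18a, a kinesin that damps chromosome movement, had 384, 213 and 233 in NFFSE, against 765, 902 and 1003 in NFFS, and was 3.31-fold lower (-1.73 ± 0.22, adjusted p = 0.000275, limma). Spc25 and Ndc80, which belong to the same kinetochore complex that holds microtubules, were 2.26-fold and 2.14-fold lower (adjusted p = 0.00027 and 0.00049, limma). Cdca2, a chromatin subunit of protein phosphatase 1, was 2.46-fold lower (adjusted p = 0.0019, limma), but the mean of its probe sets was -0.22 (adjusted p = 0.72), a dim one being at 1.88 and the other at -1.25. With arrays centered on their medians, 2 were higher and 6 lower and the median was -0.09, and without both replicate 3 arrays 1 was higher and 6 lower.

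Of 17 genes of the E2F, DREAM and related regulators, 0 were higher and 5 lower in NFFSE (29.4% called, against 26.2% of all genes). By direction, 11.0% of all genes were higher and 15.2% lower. At an unadjusted p under 0.05 limma had 1 higher, and the methods' t-test called 0 higher and 1 lower, E2f6. Tfdp2, a dimerization partner of E2F proteins, had 612, 500 and 675 in NFFSE, against 915, 901 and 1131 in NFFS (-0.72 ± 0.15, adjusted p = 0.0054, limma). E2f6, a repressor E2F, was at -0.65 ± 0.14, E2f3, an E2F that activates S phase genes, at -0.70 ± 0.16 and Rb1, the retinoblastoma protein that holds activator E2Fs in check, at -0.50 ± 0.12, with adjusted p of 0.0054, 0.0076 and 0.010. The call of Rb1 held in 11 of the 18 alternatives and ended, among others, without NFFSE replicate 2 (adjusted p = 0.055) and with the mean of its probe sets (-0.08, adjusted p = 0.86), which takes in a dim one. That of E2f3 held in 14 and ended, among others, with arrays centered on their medians and with the mean of its probe sets (-0.20, adjusted p = 0.47), and its second probe set was at 0.31. For Tfdp2 the other probe sets were lower still, and their mean with the one used was -1.26. With arrays centered on their medians 1 of the list was higher and 1 lower.

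**Figure D5:**
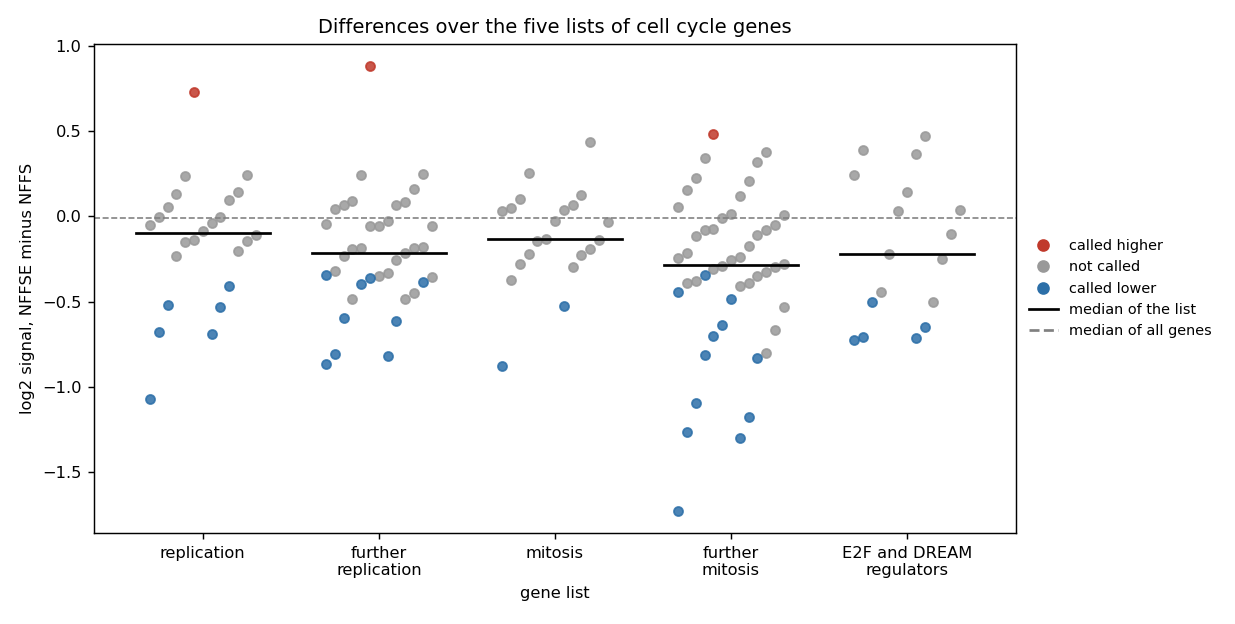
Difference in log2 signal, NFFSE minus NFFS, of each measured gene (points) in the replication, further replication, mitosis, further mitosis and regulator lists. Red points were called higher, blue points lower and grey points not called, black lines mark the median of a list and the dashed line that of all genes, and the list medians of -0.10, -0.21, -0.13, -0.29 and -0.22 lie below it, while the points of each list reach to both sides of 0.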

How the data were processed

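Spheroid cultures were profiled on 6 Affymetrix mouse arrays, 3 for NFFSE and 3 for NFFS. The deposited values are intensity signals made by the authors with MAS5 and scaled to a common trimmed mean (500.003 on every array over the 45101 probe sets, 2% trimmed). Arrays carry no read depth, and their number limits the precision. The RNA kit is RNeasy mini in the labels and RNeasy Plus micro in the methods. Of the probe sets, 34945 were annotated to a single symbol, 932 to several and 9160 to none in the annotation used, and 64 were controls.

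Signals were taken to log2 without an offset, the probe set with the highest mean log2 signal represented each of 18193 genes, and NFFSE minus NFFS was tested with limma 3.58.1 (R 4.3.3, intensity trend, two-sided, Benjamini-Hochberg over all genes, threshold 0.05). Background was the highest of 18 signals of the TrpnX control, 22.7. Array values are given for the 8 genes of either list that ranked first by p and for Pcna, Mcm2, Ccne1, Ccne2, E2f1, Mki67, Top2a and Cdk1, whatever their values, and of each further list at most 4 genes are described.

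Arrays with the same replicate number were treated as pairs in the blocked alternative, because the series design describes a split of one cell isolate over both media. The main fit and its SE, CI and p did not use these pairs. The deviations of same-numbered arrays from the mean of their medium correlated at 0.22, 0.11 and 0.14, against -0.13 to -0.02 for other pairs. Deviations within a medium cancel out, so positive values for some pairs force negative ones for others. This contrast alone therefore cannot show that the arrays are paired. These correlations were taken over the 11502 genes left by the filter on dim genes. No batch is given. The procedure was tried on simulated data with independent noise for each gene and array. That simulation held no replicate effect and no genes moving together, so it does not cover these features of the data. The members and the lists were chosen with earlier results of these data known. The methods' t-test is a two-tailed Student's test on the same log2 values. The methods of the study name that test for their statistics in general and give no test for the arrays. Alternatives were 9 other ways to scale, filter or test, the removal of each array and, added after seeing the data, the removal of both arrays of each replicate number.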

Additional observations from a re-analysis of the deposited data

How the results depend on the processing

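Rfc4 and Ccne1 passed the test with the same sign in each of the 18 alternatives, Pole in all but the methods' t-test (adjusted p = 0.072), and Kif11 in all but that test (0.071) and the mean of all probe sets (0.093). With arrays centered on their medians, 2 replication genes were higher and 2 lower, 1 mitosis gene was higher and 1 lower, 1784 of all genes were lower, and the medians became 0.10 and 0.067. Without the intensity trend, 2 replication genes and 1 mitosis gene were lower and 1323 of all genes higher. The methods' t-test gave 2 lower replication genes, 0 lower mitosis genes, and 1262 higher and 1702 lower of all genes after Benjamini-Hochberg adjustment. The floor at the TrpnX signal left 1 lower mitosis gene. The filter on dim genes and the replicate block each gave 1 higher mitosis gene, Anln, and the block changed no other call of a member. In the further mitosis list the block gave 2 higher and 15 lower genes, against 1 and 12 in the main fit. For the further replication genes it gave 1 higher and 10 lower, against 1 and 9, and for the regulators 1 and 6, against 0 and 5. The mean of all probe sets turned Cenpa to -0.66. Leaving out arrays gave 2 to 5 lower replication genes, 0 to 1 higher and 1 to 3 lower mitosis genes, and medians of -0.22 to 0.05 and -0.24 to 0.02. Of all genes, these fits called 1243 to 2099 higher and 1760 to 2704 lower. The cause of these changes was not tested. Among the 45 measured members the smallest called difference was 1.33-fold (Rfc3) and the largest that was not called was 1.36-fold (Anln).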
